A study of Mus musculus with 2 samples.

Results

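The 9 genes described here encode steps of heme synthesis: Slc25a38, Alas1, Alas2, Alad, Uros, Urod, Cpox, Ppox and Fech. They were taken from the known pathway, with earlier results of these data in view, and all 9 were found by symbol among the 55536 mouse genes of the main table, with 76 annotated transcripts between them. Polyadenylated RNA was sequenced from G1E-ER4, an immortalized male mouse erythroid line that lacks the endogenous Gata1 gene and carries GATA1 as a fusion protein that estradiol activates. All cells had received 17beta-estradiol at 10 nM for 24 h, which starts erythroid maturation in this line. The series held this group alone, with 2 libraries that the labels number as biological replicates 1 and 2, and no untreated sample was analysed here. Both libraries carry the same biosample record and no label describes their cultures, so what kind of spread separates them is not known beyond the word biological. Conditions could not be compared within 1 group, and no p-value is given.

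Heme is built by a chain of enzymes that begins in the mitochondrion, passes through the cytosol and ends in the mitochondrion. Glycine and succinyl-CoA are joined by aminolevulinate synthase, the ring is closed and trimmed in the cytosol, and iron is inserted in the last step. Red cell precursors make most of the heme of the body, and they use their own form of aminolevulinate synthase. The step between Alad and Uros is not analysed here.

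The libraries held 71485617 and 14121747 expected counts, the estimated fragments assigned to genes, so replicate 1 was 5.06 times deeper. All 5 erythroid markers examined were detected, between 484 and 97719 TPM, an abundance scaled to the same total in each library. Gata1, at 2890 and 2661 TPM, is not informative here, since the introduced fusion can supply its reads. The other markers did not move together. Over all transcripts, the globin genes Hbb-bs and Hba-a1, nearly all of the summed level of 169168 and 70450 TPM, were lower in replicate 2. So was Slc4a1, a membrane anion exchanger, at 725 and 484 TPM. In protein-coding transcripts alone Hba-a1 was higher in replicate 2, at 2598 TPM in replicate 1 and 29117 in replicate 2. Hbb-bs and Slc4a1 were lower in replicate 2 in these as well. Klf1, an erythroid transcription factor, was higher there, at 634 and 2134 TPM. None of 13 lymphoid, myeloid, mast cell and stromal markers reached 1 TPM in both libraries, and the 3 mast cell markers were listed at 0. Of 4 megakaryocyte markers 3 were detected, at 28.8 TPM or less, with Gp9 and Gp1ba higher in replicate 2, and Pf4 was listed at 0.

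All 9 genes were expressed, over a range from 2.89 to 1226 TPM. TPM is a level per transcript length, so genes can be set side by side. The effective length used for a gene could differ between libraries. It was 777 bases in replicate 1 and 1809 in replicate 2 for Alas2, and 521 and 1203 for Urod, against 1059 and 1079 for Alad. Alad, Fech, Cpox, Ppox and Slc25a38 were at 100 TPM or more in both libraries, and Alas1 and Uros stayed below 10. In replicate 1 the order was Alad, Fech, Cpox, Alas2, Ppox, Slc25a38, Urod, Uros and Alas1. In replicate 2 it was Fech, Alad, Ppox, Cpox, Slc25a38, Alas2, Urod, Uros and Alas1, so the last 3 places were the same. The top place in replicate 2 depended on the table: Alad was above Fech there with the M4 annotation, at 408 and 366 TPM, and in the table the authors quantified from unaligned reads, at 127 and 85.3 TPM. The median over the 9 genes was 166 TPM in replicate 1 and 135 in replicate 2. For the level, the authors' intervals, whose confidence level the sources used here do not give, did not overlap between libraries for 6 of the 9 genes, against 75% of all genes tested.

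**Figure D1:**
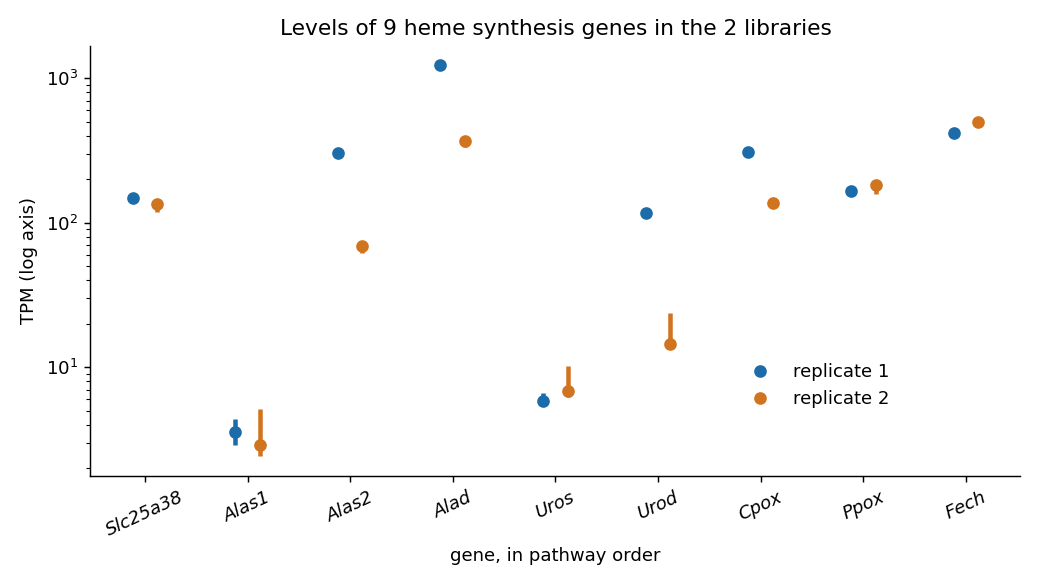
Level of each gene in TPM (log axis) in pathway order, with 1 point per library and a vertical bar for the authors' interval of the posterior estimate. The points of Alad, Cpox and Fech lie above their bars in both libraries, and that of Alas2 in replicate 2. Alas1 and Uros lie below 10 TPM in both libraries, and Alas2, Alad, Urod and Cpox are the genes whose points lie furthest apart.

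Slc25a38 encodes the carrier of the inner mitochondrial membrane that imports glycine for the first step. Its level was 148.6 TPM in replicate 1 and 135.0 in replicate 2 (141.8 ± 9.60 TPM, SD, n = 2), from 13283 and 1320 counts. Among 47 genes of the SLC25 carrier family it ranked 4 in replicate 1 and 5 in replicate 2. Near equality held in TPM and not in counts: scaled to library size the counts were 1.99 times lower in replicate 2 (exact 95% interval 1.88 to 2.11), 1.56 times with TMM factors and 1.47 times with DESeq2 size factors. The effective length behind the TPM was 1233 bases in replicate 1 and 792 in replicate 2. The transcripts behind the gene differed as well. Slc25a38-201, the complete coding model of 7 exons, held 58.4% of the gene's TPM in replicate 1 and 12.2% in replicate 2. Slc25a38-205 and Slc25a38-206 carry an extra exon between exons 3 and 4 and are annotated as targets of nonsense-mediated decay, the pathway that degrades mRNA with an early stop codon. Together these models held 13.2% in replicate 1 and 67.3% in replicate 2, and had 24.0% and 70.9% in the table quantified from reads. The higher share in replicate 2 was therefore present in both tables. A further coding model, Slc25a38-202, which is incomplete, held 17.5% and 1.44%, and Slc25a38-203, a model with no reading frame, held 3.25% and 11.6%.

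The extra exon is 73 bases long in Slc25a38-205 and 123 bases in Slc25a38-206, with the same start. The first 81 bases of the long form (GENCODE M21 on mm10, chr9:120119883-120119963, plus strand) are shown because they hold the early stop codon of Slc25a38-206, in capitals.
Slc25a38 extra exon: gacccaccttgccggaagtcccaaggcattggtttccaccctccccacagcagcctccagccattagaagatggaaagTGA
The stop begins at base 79 of the exon. Slc25a38-205 leaves the exon before that base, and its length of 73 bases is not a multiple of 3, so the frame of the exons that follow is shifted. The annotated coding sequence is 978 bases in Slc25a38-201, 585 in Slc25a38-205 and 414 in Slc25a38-206.

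**Figure D2:**
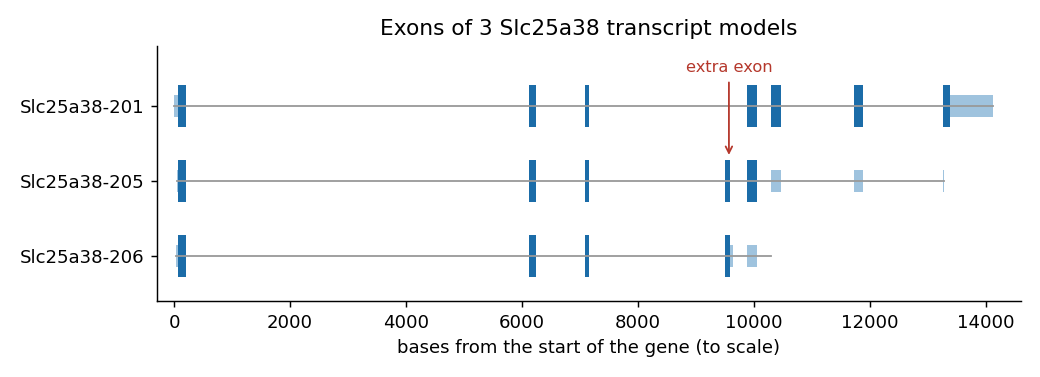
Exons of 3 Slc25a38 models, to scale, by distance in bases from the start of the gene. Tall boxes are annotated coding sequence and low boxes are untranslated; the arrow marks the extra exon, which held 13.2% of the gene's TPM in replicate 1 and 67.3% in replicate 2 through the lower 2 models.

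The first enzyme, aminolevulinate synthase, is encoded by Alas1 in most tissues and by Alas2, on the X chromosome, in erythroid cells. Alas1 stood at 3.56 TPM in replicate 1 and 2.89 in replicate 2 (3.23 ± 0.474 TPM, SD, n = 2), and only 34 counts lay behind the second value. Alas2 stood at 303.8 TPM in replicate 1 and 69.0 in replicate 2 (186 ± 166 TPM, SD, n = 2). The erythroid gene was thus above the general one in both libraries, 85.3 times in replicate 1 and 23.9 times in replicate 2. In the table quantified from reads the ratio was 66.9 and 28.1, with the M4 annotation 140.6 and 26.0, and with posterior means 82.9 and 17.4. These ratios take in all models of both genes, with and without a reading frame. With coding models alone the ratio was 46.8 in replicate 1, and none could be formed in replicate 2, where coding Alas1 was listed at 0.

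The models of Alas1 rested on few counts. Alas1-211, an incomplete coding fragment, led in replicate 1 with 31.0% of the gene from 24.5 counts and was listed at 0 in replicate 2. Alas1-208, an incomplete model annotated as a target of nonsense-mediated decay, held 19.4% in replicate 1 and led in replicate 2 with 72.4%, from 17.2 counts. Alas1-207, a complete coding model, held 13.5% of TPM and 38.4% of counts in replicate 1, and Alas1-203, a retained-intron model, held 13.8% of TPM; both were listed at 0 in replicate 2. Alas1-206, a processed transcript, held 10.99% and 18.97%, but was at or near 0 in the table quantified from reads.

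Most of the Alas2 difference between libraries sat in 1 transcript model. Alas2-204, annotated as a processed transcript without a reading frame, consists of the last exons and 111 bases of intron. It stood at 222.8 TPM in replicate 1 and 1.00 in replicate 2, or 73.4% and 1.45% of the gene. Since the model is short, its part of the counts was smaller, 39.4% and 0.353%. The same model led in replicate 1 in the table quantified from reads, with 59.8% against 1.66% in replicate 2.

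The complete coding models of Alas2 differed little between the libraries. Alas2-201 was at 38.2 TPM in replicate 1 and 36.0 in replicate 2, and Alas2-202 was at 40.4 and 31.5. Their sum was 78.6 and 67.5 TPM, a ratio of 1.16, against 4.40 for the whole gene. These models differ inside the reading frame by 45 bases at the start of exon 3 (chrX:150552959-150553015, plus strand, mm10), which Alas2-201 keeps and Alas2-202 skips. They are shown with the 12 bases that follow, the 45 bases in capitals.
Alas2 exon 3 start: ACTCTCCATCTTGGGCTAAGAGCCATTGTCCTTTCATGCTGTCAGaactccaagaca
The annotated coding sequence is 1761 bases with these bases and 1716 without. The aligned-read table gave the models nearly equal parts in both libraries, whereas the table quantified from reads gave Alas2-202 the larger part in replicate 2, 69.5% against 25.1%.

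Translation of Alas2 is held back by iron regulatory proteins when iron is scarce, through an iron-responsive element in its 5′ untranslated region. The element is shown (chrX:150547461-150547485, plus strand, mm10, GENCODE M21) with its loop letters in capitals.
Alas2 iron-responsive element: gttcgtcctCAGTGcagggcaacag
The letters CNNNNNCAGTG were searched on the sense strand in the last 42 bases before the start codon, and 1.47% of 45416 coding transcripts hold them. Both coding Alas2 models did, and the other complete coding models of the 9 genes did not. Alas2-204, which led in replicate 1, begins downstream of this exon and lacks the element.

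The Alas2 promoter is known as a target of GATA1, and the 250 bases before each RefSeq start (GRCm38.p6) were searched on both strands for AGATAA and the variant TGATAA, and likewise for AGATAG or else TGATAG. The table held 11 starts for 8 of the genes and none for Fech. A match was present at 3 of the 11 starts, those of Alas2, Cpox and the inner start of Uros, against 26.5% of 32851 promoters, which is close to the share among the 9 genes' starts. The windows are shown because these are the starts with a match, cut where an annotated exon begins, with matches in capitals.
Alas2 promoter: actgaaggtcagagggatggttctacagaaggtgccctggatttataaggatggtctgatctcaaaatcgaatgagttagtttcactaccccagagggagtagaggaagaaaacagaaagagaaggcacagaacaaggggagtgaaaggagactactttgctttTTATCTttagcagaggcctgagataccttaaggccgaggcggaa
Cpox promoter: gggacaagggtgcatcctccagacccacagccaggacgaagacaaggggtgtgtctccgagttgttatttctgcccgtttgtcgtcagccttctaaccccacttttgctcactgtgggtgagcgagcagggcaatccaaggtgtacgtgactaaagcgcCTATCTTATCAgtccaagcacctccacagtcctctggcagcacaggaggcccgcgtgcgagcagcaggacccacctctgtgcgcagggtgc
Uros inner promoter: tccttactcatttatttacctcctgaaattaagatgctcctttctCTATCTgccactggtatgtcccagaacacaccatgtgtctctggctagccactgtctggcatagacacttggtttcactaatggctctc
They lie at chrX:150547167-150547374 (plus strand), chr16:58669958-58670207 (plus strand) and chr7:133702617-133702750 (minus strand). The other Uros match lies in an annotated exon. The match begins 86 bases before the RefSeq start in Alas2, and the Cpox matches, at 91 and 86 bases before it, share 1 base. The letters CCNCNCCC, a CACC box, were found in 7 of the 11 windows, against 45.9% of all promoters. These are matches of letters and not measured binding.

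Alad encodes the cytosolic enzyme that joins pairs of aminolevulinate into porphobilinogen. It was the most abundant of the 9 genes in replicate 1, at 1226 TPM, and stood at 369 TPM in replicate 2 (798 ± 606 TPM, SD, n = 2). The ratio of 3.32 rested on 94086 and 4922 counts. Scaled to library size the counts differed 3.78 times, with an exact 95% interval of 3.67 to 3.89 that covers counting error only. Alad-201, the coding model of 12 exons, held 94.8% of the gene in replicate 1 and 94.1% in replicate 2. Among the 9 genes Alad was thus the one whose libraries differed over 2-fold in the whole gene and the coding models alike with the same leading model in both.

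Uros encodes uroporphyrinogen III synthase, which closes the ring. Its level was 5.81 TPM in replicate 1 and 6.84 in replicate 2 (6.33 ± 0.728 TPM, SD, n = 2), with overlapping intervals and 107 counts in replicate 2. Alad was 211 times as abundant in replicate 1 and 54.0 times in replicate 2. Uros is known to use an outer start in all tissues and an inner start in erythroid cells, the latter being the start whose promoter is shown. The annotated models that begin at the inner start, Uros-209 and Uros-210, are incomplete fragments and held 3.36 and 1 counts in replicate 1 and 0 in replicate 2. Uros-201 and Uros-203 held 44.6% and 43.7% of the gene in replicate 1, and Uros-204 held 77.5% in replicate 2. In the table quantified from reads Uros-203 led in both libraries and Uros-204 was at or near 0, so which Uros model led depended on the table.

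Urod encodes uroporphyrinogen decarboxylase, which trims the side chains of the ring. It showed the widest difference of the 9 genes, 117 TPM in replicate 1 and 14.5 in replicate 2 (65.8 ± 72.6 TPM, SD, n = 2), a ratio of 8.10 from 4426 and 215 counts. Scaled to library size the counts differed 4.07 times (exact 95% interval 3.55 to 4.69). Urod-209, a retained-intron model of 4 exons at the end of the gene with 128 bases of intron, stood at 95.5 TPM in replicate 1, 81.5% of the gene and 69.7% of its counts. In replicate 2 that model was listed at 0 in the aligned-read table and in the table quantified from reads. Urod-201, the complete coding model, was at 10.4 TPM in replicate 1 and 11.4 in replicate 2. Urod-204, a short coding model, held 0.623% and 12.6% of the gene, the latter from 7.40 counts. Over all coding models Urod was at 11.1 and 13.2 TPM, so the gene's difference was not present in its coding models.

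Cpox encodes coproporphyrinogen oxidase, of the mitochondrial intermembrane space. It stood at 308.8 TPM in replicate 1 and 136.7 in replicate 2 (223 ± 122 TPM, SD, n = 2), 2.26 times apart. Cpox-201, the complete coding model, held 78.5% of the gene in replicate 1 and 34.8% in replicate 2. Cpox-205, which runs 1755 bases on past exon 5 into the intron and stops there, held 21.2% and 65.1%. The edge of exon 5 is shown (chr16:58675441-58675500, plus strand, mm10), with the intron bases that Cpox-205 keeps in capitals.
Cpox exon 5 edge: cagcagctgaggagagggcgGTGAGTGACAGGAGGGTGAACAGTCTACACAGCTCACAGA
For Cpox the tables did not give the same picture. With the M4 annotation, which also rests on aligned reads, Cpox-201 led in both libraries. Which Cpox models that annotation holds was not examined, so this lead cannot be set against the share of Cpox-205. In the table quantified from reads Cpox-201 led in both libraries, with 92.7% in replicate 1 and 94.5% in replicate 2, and Cpox-205 held 7.11% and 5.35%. That table assigned 25530 counts to Cpox in replicate 2, 5.22 times the 4892 of the aligned-read table, whereas the median protein-coding gene gained 2.27 times. In replicate 1 the corresponding ratios were 1.85 and 1.41. The cause was not tested. After rescaling to nuclear protein-coding genes, Cpox was 1.25 times higher in replicate 1 in the table quantified from reads.

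Ppox encodes protoporphyrinogen oxidase, which makes protoporphyrin at the inner mitochondrial membrane. It stood at 166.0 TPM in replicate 1 and 181.2 in replicate 2 (174 ± 10.7 TPM, SD, n = 2), with overlapping intervals. Ppox-201, the complete coding model of 13 exons, led in both libraries with 66.5% and 50.8%. Ppox-204, a processed transcript of 420 bases, held 23.0% and 47.0% of TPM but 4.51% and 12.6% of counts. In the table quantified from reads Ppox-204 led in both, with 43.3% and 67.6%, so its share was higher in replicate 2 in either table.

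Fech encodes ferrochelatase, which inserts iron into protoporphyrin. It stood at 415 TPM in replicate 1 and 501 in replicate 2 (458 ± 60.7 TPM, SD, n = 2), and was the most abundant of the 9 genes in replicate 2 in this table. In the aligned-read M21 table most of this level was assigned to a model that is not annotated to make the full enzyme. Fech-211, annotated as a target of nonsense-mediated decay, extends exon 4 by 63 bases and has 366 bases of annotated coding sequence. It held 59.3% of the gene in replicate 1 and 90.8% in replicate 2, while the table quantified from reads gave it 32.2% and 58.4%. Fech-210, a coding model that keeps the last intron of 437 bases, held 32.3% and 6.34%. In the table quantified from reads it led in replicate 1 with 46.7% and held 35.3% in replicate 2. With the M4 annotation the leading model in both libraries was Fech-201, a coding model without exon 2. In the M21 table Fech-201 held 4.27% in replicate 1 and 0.400% in replicate 2. Which Fech models M4 holds was not examined, so its lead there cannot be set against the shares of Fech-210 and Fech-211.

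The annotated Fech models limit what these shares can say. Of 15 models, Fech-205, Fech-208 and Fech-209 have exon 2, lack the extension and splice the last intron. They are 6427, 6571 and 1753 bases long, and the largest share among them was that of Fech-208, 0.533% in replicate 1 and 0.685% in replicate 2. A fragment that matches several models is divided between them by the quantifier, so the shares of the extension and of the last intron are estimates and not counts of spliced reads.

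Between the libraries, 4 of the 9 genes were over 2-fold apart in TPM: Alas2, Alad, Urod and Cpox, all lower in replicate 2. Where the expected count averaged 50 or more, 51% of 9028 genes exceeded that fold, 35.4% lower and 15.5% higher in replicate 2, so the members' count is near this background. All 9 genes passed that filter. The median log2 ratio of TPM + 1, replicate 2 over replicate 1, was -0.23 over the 9 genes and -0.32 over all genes tested. The former is the value of Alas1, which had 34 counts in replicate 2, between -1.17 (Cpox) and -0.14 (Slc25a38). Alad was over 2-fold lower in replicate 2 under every scaling and table tried, and Urod under all but the sum of coding models. Alas2 was 2.19 times apart with counts scaled to library size, 1.72 times with TMM factors and 1.62 times with DESeq2 size factors. Cpox was 1.95 times apart with DESeq2 size factors. Uros, Ppox and Fech, slightly higher in replicate 2 in TPM, were lower there when counts were scaled to library size alone. For Uros the exact 95% interval of that ratio, 0.942 to 1.43, includes 1. With TMM and DESeq2 factors Fech was 1.22 and 1.29 times higher in replicate 2, and Uros 1.10 and 1.17 times. Ppox was 1.05 times lower there with TMM factors and 1.01 times higher with DESeq2 size factors. Among the erythroid markers Hbb-bs, Hba-a1 and Slc4a1 were also lower in replicate 2 by whole-gene TPM and Klf1 was higher. In coding transcripts alone Hba-a1 was higher there. The part of these markers in the differences was not tested.

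**Figure D3:**
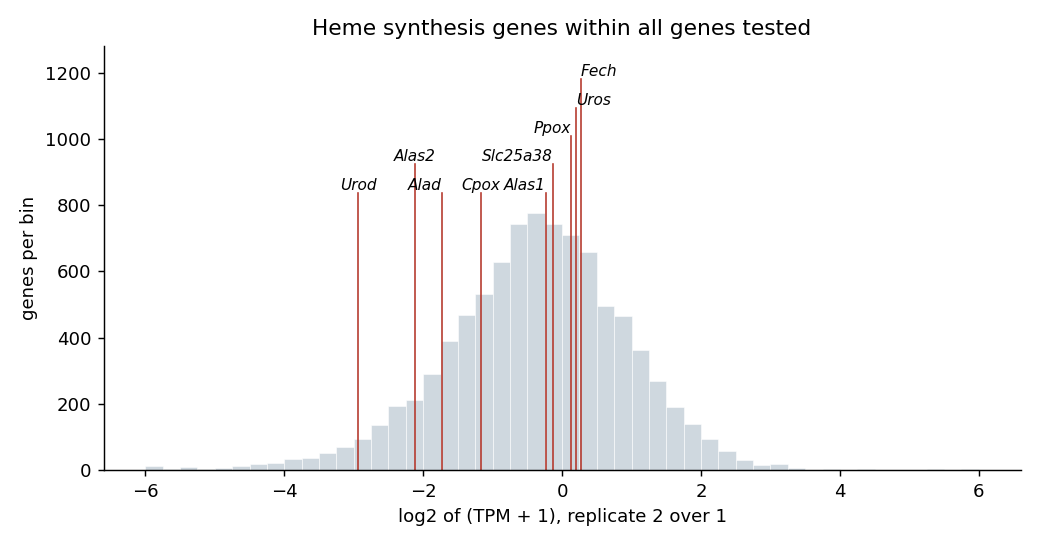
Number of genes per bin of 0.25 in the log2 ratio of TPM + 1, replicate 2 over replicate 1, among genes whose expected count averaged 50 or more (grey), the end bins including more distant genes. Vertical lines mark the 9 genes, from Urod at -2.93 to Fech at 0.27.

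The count changed in its members when only protein-coding models were summed, an alternative chosen after seeing the data. Then 5 of the 9 genes were over 2-fold lower in replicate 2, namely Slc25a38, Alad, Cpox and Fech, and Alas1 against a level of 0, against 42.1% of 8186 genes lower and 54.8% apart in either direction. Slc25a38 was at 112.8 TPM in replicate 1 and 18.4 in replicate 2, 6.12 times apart. Fech was at 155 and 37.1 TPM, a ratio of 4.18, although the whole gene was higher in replicate 2. Cpox was at 242 and 47.5 TPM. Alas1 was at 1.68 TPM in replicate 1 and listed at 0 in replicate 2, where the whole gene had 34 counts, so it passed the filter through replicate 1 alone and 4 genes remain without it. Alas2 and Urod, whose whole-gene levels were the furthest apart, were less than 1.2 times apart between libraries in coding models. The median log2 ratio of coding TPM + 1 was -1.42 over the 9 genes and -0.46 over all genes tested. That median is the value of Alas1 itself, set by the pseudocount, and the neighbouring genes lay at -1.72 (Alad) and -0.27 (Ppox). The coding sums of Fech and Cpox rest on shares that depended on the table. Coding models held 37.5% and 7.42% of Fech here, against 55.3% and 39.7% in the table quantified from reads. For Cpox they held 78.5% and 34.8% here, against 92.7% and 94.5% there. The shares of Slc25a38, 75.9% and 13.7% here, were 55.7% and 13.3% there. Coding sums were not compared in that table.

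**Figure D4:**
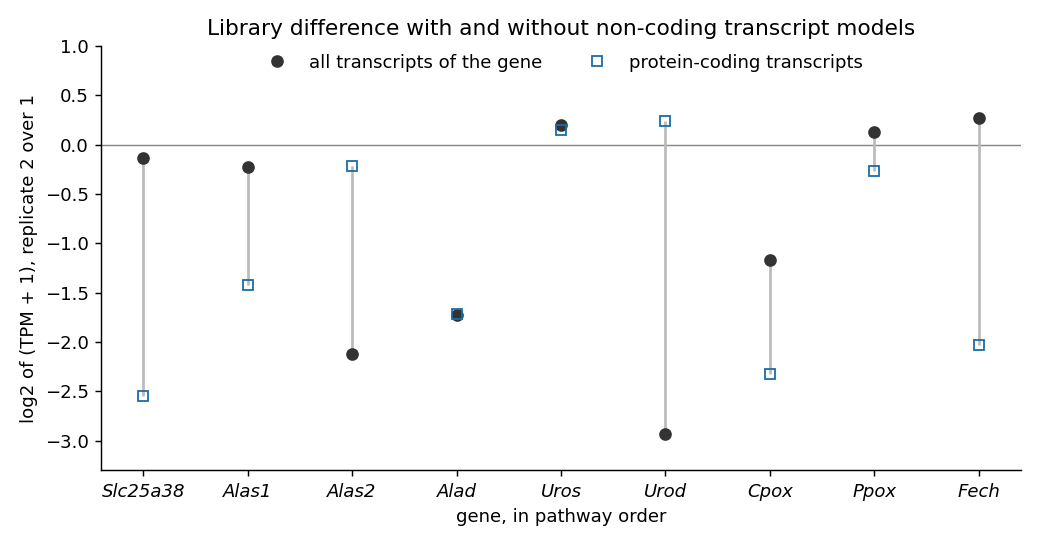
Log2 ratio of TPM + 1 in the aligned-read table, replicate 2 over replicate 1, for all transcripts of each gene (filled circles) and for its protein-coding models (open squares). For Alas2 and Urod the squares lie near 0 and the circles below -2, and for Slc25a38 and Fech the circles lie near 0 and the squares below -2.

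The classes of the models behind each gene also differed between the libraries. The share of coding models was over 20 percentage points apart in 6 of the 9 genes, against 27.6% of 8440 genes with the same filter. The most abundant model differed between libraries in 6 of the 9, against 37.8% of 7913 genes. Coding models held under 50% of the TPM of 4 of the 9 genes in replicate 1 (Alas1, Alas2, Urod and Fech), against 25.6% of genes. They held under 50% of 4 in replicate 2 (Slc25a38, Alas1, Cpox and Fech), against 30.6%. The median share of coding models over the 9 genes was 66.7% in replicate 1 and 50.8% in replicate 2, and over all genes tested it was 92.7% and 96.6%. The direction was not common to the 9 genes: the coding share was lower in replicate 2 for Slc25a38, Alas1, Uros, Cpox, Ppox and Fech and higher for Alas2, Alad and Urod. For Alad it was 99.5% and 99.9%, and for Uros 95.3% and 90.6%. In the table quantified from reads Cpox turned, at 92.7% and 94.5%. Depth differed with these shares, and its part was not tested.

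**Figure D5:**
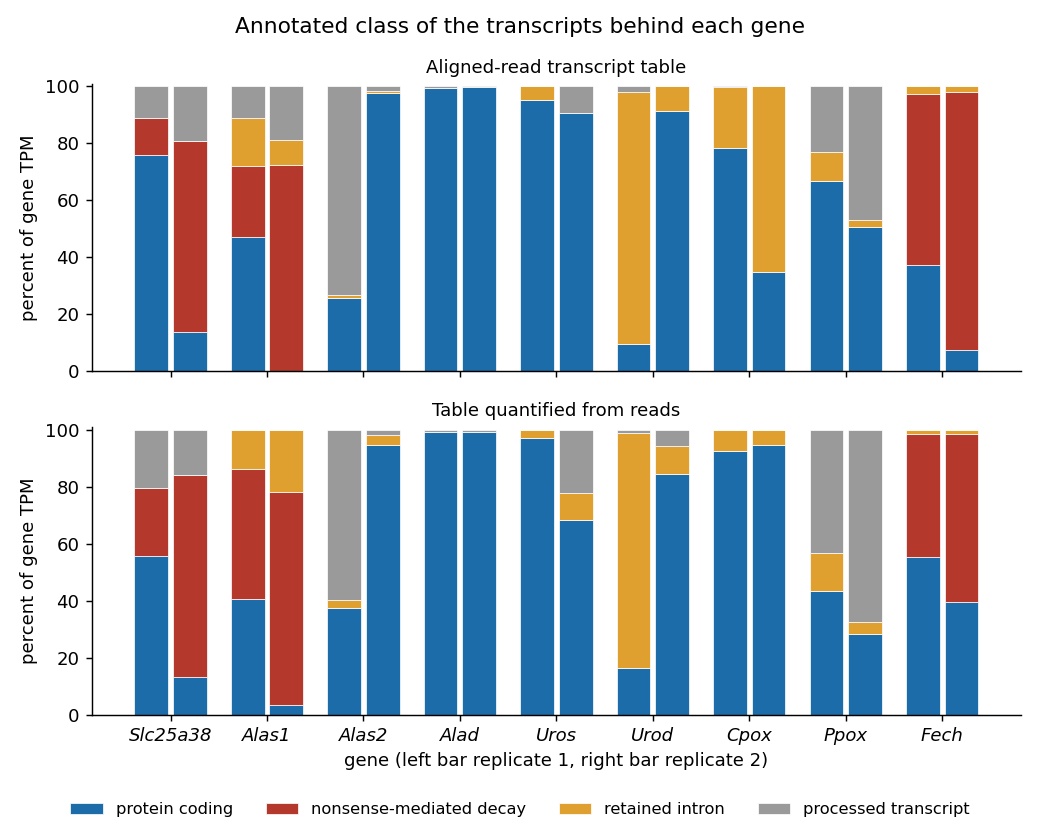
Percent of each gene's TPM by annotated class of transcript, replicate 1 in the left bar and replicate 2 in the right bar of each pair, in the aligned-read table (top) and in the table quantified from reads (bottom). Alas2 and Urod are mostly non-coding in replicate 1 only, Slc25a38 mostly nonsense-mediated decay in replicate 2 only, in both panels, whereas Cpox is mostly retained intron in replicate 2 in the top panel alone.

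Genes that supply, carry and sense heme or its precursors were examined as a list of 21. All 21 were detected at 1 TPM or more in both libraries, with a median of 62.2 TPM in replicate 1 and 79.8 in replicate 2. By the mean of both libraries the highest was Tmem14c, a mitochondrial inner membrane protein needed for porphyrin handling in red cell precursors, at 1053 TPM in replicate 1 and 520 in replicate 2. Slc25a39, a mitochondrial carrier needed for glutathione import, was at 800 and 363 TPM. Abcb10, a mitochondrial transporter of erythroid cells, was at 408 and 659 TPM, above Tmem14c in replicate 2. Snx3, which sorts the transferrin receptor for recycling and so serves iron uptake, was at 377 and 308 TPM. By the mean the lowest were Tspo2 and Suclg2. Tspo2, an erythroid relative of the translocator protein, was at 6.60 and 3.96 TPM, from 195 and 25 counts. Suclg2, a subunit of the GTP-forming succinyl-CoA synthetase, was at 7.89 and 8.48 TPM, from 506 and 87 counts. In coding models alone Tspo2 was at 1.16 TPM in replicate 1 and 3.72 in replicate 2. Coding Suclg2 was at 0.25 TPM in replicate 1 and listed at 0 in replicate 2.

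Of the 21, 7 were over 2-fold lower and 2 over 2-fold higher in replicate 2, beside 35.4% and 15.5% of all genes. The 7, named after their values were seen, were Tmem14c, Slc25a39, Abcb6, Atpif1, Shmt2, Sucla2 and Suclg1. Shmt2, which makes mitochondrial glycine from serine, was at 303 TPM in replicate 1 and 136 in replicate 2. Sucla2 and Suclg1, subunits of succinyl-CoA synthetase, were at 15.9 and 39.6 TPM in replicate 1 and at 5.58 and 7.90 TPM in replicate 2. The 2 higher in replicate 2 were Fam210b, a mitochondrial protein of erythroid iron use, at 57.3 and 124 TPM, and Flvcr1, a heme exporter, at 36.3 and 79.8 TPM.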

How the data were processed

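Polyadenylated RNA of 2 libraries in 1 group was analysed, with replicate numbers from the labels. The deposited tables are on mm10, per the files' descriptions, for GENCODE M21 (main) and M4 from a transcriptome alignment, and for M21 from reads. No source used here gives the aligner, the quantifier or the use of strand, and overlapping genes may share reads. The authors' expected counts are estimated fragments, not normalized. Per the file headers, the authors gave TPM scaled over all entries of a table. Other deposited columns hold the authors' interval bounds and effective lengths.

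All 55536 mouse genes were used, symbols came from the table quantified from reads, and spike-ins were left out. Members and lists were chosen with earlier results of these data known. A gene was detected at 1 TPM or more in both libraries. Library differences were counted above 2-fold among genes whose expected count averaged 50 or more, log2 ratios used TPM with a pseudocount of 1, and no test was run. Transcript shares are percent of the summed TPM of a gene's transcripts. The counting code was tested on simulated data. Named were all 9 members, their leading transcripts and those at 10% or more, and the 4 highest and 2 lowest of the partner list. No genes of like pattern were sought, since 2 libraries give none. Alternatives were the other tables, posterior means, TPM over nuclear protein-coding genes, CPM, edgeR TMM and DESeq2 factors on rounded expected counts, other thresholds, each library alone, and coding transcripts alone (added later). Promoters are from RefSeq GRCm38.p6. Tables were read in Python 3.11.15 (pandas 2.3.3, numpy 2.4.6), intervals came from scipy 1.17.1, figures from matplotlib 3.10.9, and scaling factors from edgeR 4.0.16 or DESeq2 1.42.0 under R 4.3.3.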

Additional observations from a re-analysis of the deposited data

How the results depend on the processing

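The median member level, 150.5 TPM as the mean of both libraries, was 102 TPM in the table quantified from reads, 195 TPM there after rescaling over nuclear protein-coding genes, and 74.0 TPM with coding transcripts alone. It ranged from 135 to 166 TPM with either library left out. The ratio of Alas2 to Alas1, 54.6 on average, ranged from 23.9 to 85.3 with either library left out, and was 83.3 with M4 and 50.1 with posterior means. With coding transcripts alone it was 46.8 in replicate 1 and could not be formed in replicate 2, since Alas1 was listed at 0 there. The number of members over 2-fold apart, 4, was 9 in the table quantified from reads without rescaling, where all genes had a median log2 ratio of -1.16. Of 10268 genes there, 7456 were over 2-fold lower in replicate 2 and 466 over 2-fold higher. After rescaling the number was 3, beside 2133 genes lower and 1949 higher. With TMM it was 3, beside 2919 of 9029 genes lower and 1396 higher. With DESeq2 size factors it was 2, beside 2775 of 9029 genes lower and 1556 higher. The median log2 ratio over the members, -0.23, was -0.058 with M4, -1.88 in the table quantified from reads, -0.25 there after rescaling, -0.20 with posterior means and with TPM over nuclear protein-coding genes, -1.42 with coding transcripts, -0.98 with CPM, -0.63 with TMM, -0.55 with DESeq2 size factors and -0.29 with a pseudocount of 0.1. It was below 0 in each, and so was the median over all genes tested, at -0.59 with CPM, -0.28 with TMM and -0.21 with DESeq2 size factors. With CPM 9 of 9 members were lower in replicate 2, 4 of them over 2-fold. Of all 9029 genes tested with CPM, 3731 were over 2-fold lower there and 873 over 2-fold higher. No cause was tested.

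The number of members whose leading transcript differed between libraries, 6, was 4 in the table quantified from reads and 5 with M4. The share over all genes was not computed in either, and the models that M4 holds for each gene were not examined. Of the partner list 17 of 21 reached 10 TPM in both libraries. No paired analysis was possible because the series holds 1 group. Alas1 with 34 counts and Uros with 107 in replicate 2 are limited by depth, and their transcript shares there rest on few counts.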
